A study of Mus musculus with 8 samples.

Results

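LIM homeodomain proteins are transcription factors that bind DNA through a homeodomain and recruit partners through a pair of LIM zinc fingers. Ldb1 and Ldb2 are adaptors that bind those LIM domains and, by dimerising, join LIM proteins into larger complexes, while the LIM-only proteins carry LIM domains without a homeodomain and can compete for or bridge the same adaptors. In the mouse limb bud, Lhx2 and Lhx9 are known from the distal mesenchyme, where with Lmx1b they are needed for outgrowth, and Lmx1b sets dorsal identity under Wnt7a from the dorsal ectoderm. The genes described here are the LIM homeobox genes Lhx2, Lhx9 and Lmx1b, the LIM-only genes Lmo1, Lmo2 and Lmo4, and the adaptor genes Ldb1 and Ldb2. They were taken as every probe set, the array feature that reports a transcript, whose single platform gene symbol was one of these names, which gave 14 of the 45037 non-control probe sets and 8 of the 18194 genes that have a probe set of a single symbol.

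All samples came from limb buds of E10.5 mouse embryos heterozygous for the Shhgfpcre allele, in which a GFP and Cre cassette sits at Shh. Limbs were dissociated, and FACS took the GFP-positive fraction as the zone of polarizing activity (ZPA, the Shh-producing posterior mesenchyme) and the GFP-negative fraction as everything else in the limb (non-ZPA). Every sample of both fractions carried the allele. Each group had 4 samples, but ZPA replicates 1 and 2 held the same values to within 0.5 intensity units and were counted once as ZPA array 1+2, which left 3 ZPA and 4 non-ZPA arrays. The non-ZPA sort is a mixture of every other limb cell, and the labels name neither the number of embryos nor whether forelimbs and hindlimbs were pooled. In such bulk samples fewer cells of a type and less RNA per cell cannot be told apart. Nothing in the labels says that replicates came from separate litters or sorts, so p-values measure only the spread between these arrays, which may be technical.

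Shh, whose reporter defined the sort, read 6226, 12149 and 11191 on the ZPA arrays, which checks the labels. On non-ZPA replicates 1 to 4 it read 319, 203, 868.5 and 1085. Title numbers divide the arrays into 2 runs, and the scan days, on record for 7 of the 8 samples, divide them in the same way. ZPA array 1+2 was in run 1 together with non-ZPA replicates 1 and 2, while replicates 3 and 4 of either sort made up run 2. In both sorts Shh read lower on the run 1 arrays than on the run 2 arrays. Its part in other differences between the runs was not tested. Pitx1, a hindlimb gene, read 996 on ZPA array 1+2 and 926 to 1233 on the non-ZPA arrays of run 1, against 18.3 and 75.6 on the ZPA arrays and 32.4 and 83.6 on the non-ZPA arrays of run 2. Tbx5, a forelimb gene, read 639 on ZPA array 1+2 and 952 and 1193 on the non-ZPA arrays of run 1. In run 2 it read 1459 and 3293 on the ZPA arrays and 1190 and 1099 on the non-ZPA arrays. Its non-ZPA values did not separate the runs, and which limbs each run held was not tested. Spike-in controls, relative to their average in non-ZPA, stood at 10.1, 1.44 and 5.96 on the ZPA arrays and at 0.810 to 1.16 on the non-ZPA arrays. For Actb the 3′ probe set exceeded the 5′ one 21.6 times on ZPA replicate 4 and 2.04 to 5.37 times elsewhere, a ratio that grows as RNA degrades. All 8 limb mesenchyme markers were tested on these arrays and none passed the gene-level test, and their summed intensity ran from 18843 to 25640 in ZPA and from 15249 to 19358 in non-ZPA cells. Of the 8, 6 had a positive difference (median 0.70 on the log2 scale). For 4 of them every ZPA array lay above every non-ZPA array, as for 7.79% of all tested probe sets.

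The promoters of the paralogues Lhx2 and Lhx9 are shown because only Lhx2 of the pair passed the test below. Of the 8 genes, 6 had promoters in the RefSeq table (GRCm38.p6), and Lmo2 and Ldb2 are named only. The 250 bases before each annotated start are given 5′ to 3′ on the gene's strand, the first Lhx2 start at chr2:38339031-38339280 (plus strand), the second at chr2:38351058-38351307 (plus strand) and Lhx9 at chr1:138842445-138842694 (minus strand). Capitals mark TAAT, the core that homeodomains bind, and GGGCGG, the GC box, each searched on both strands.
Lhx2, first start: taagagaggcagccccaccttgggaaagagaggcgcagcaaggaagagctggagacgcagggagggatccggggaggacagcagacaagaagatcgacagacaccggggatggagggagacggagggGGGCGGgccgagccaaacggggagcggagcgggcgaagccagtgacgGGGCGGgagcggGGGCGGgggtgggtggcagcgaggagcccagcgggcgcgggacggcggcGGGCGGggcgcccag
Lhx2, second start: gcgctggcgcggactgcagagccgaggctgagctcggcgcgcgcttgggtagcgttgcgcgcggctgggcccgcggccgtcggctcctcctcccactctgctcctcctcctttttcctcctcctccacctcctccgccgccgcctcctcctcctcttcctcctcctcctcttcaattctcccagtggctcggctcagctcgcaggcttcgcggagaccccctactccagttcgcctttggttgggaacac
Lhx9: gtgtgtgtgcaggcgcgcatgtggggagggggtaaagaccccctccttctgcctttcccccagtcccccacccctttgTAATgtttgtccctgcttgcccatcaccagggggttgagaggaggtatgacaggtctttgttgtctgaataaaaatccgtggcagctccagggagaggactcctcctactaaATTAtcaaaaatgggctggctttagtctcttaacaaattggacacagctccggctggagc
The first Lhx2 window held 4 GC boxes and no TAAT, at 72.8% G or C, the second held neither motif, at 68.4%, and the Lhx9 window held TAAT 2 times and no GC box, at 53.6%. Among 32851 windows of the same length from 27025 genes, 54.9% held TAAT, 32.7% held GGGCGG, and the median G or C content was 52.4%.

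Of the 8 genes, 3 differed between the sorts: Lhx2 and Lmo2 were higher and Ldb2 was lower in ZPA cells. Of the 14 probe sets, all of which passed the filter on low values, 4 passed limma's test at an adjusted p under 0.05, 2 higher (Lhx2 and Lmo2) and 2 lower (both of Ldb2). Over all 29521 tested probe sets 1.63% were called, 0.349% higher and 1.28% lower. The groups did not overlap for 6 of the 14, 3 higher and 3 lower, against 16.5% of all tested probe sets, 7.79% higher and 8.73% lower. The 14 had a median difference of 0.18 on the log2 scale, ZPA minus non-ZPA, and all tested probe sets one of 0.02. In the fit with 1 row per gene, the calls were the same 3 genes, against 2.31% of 13884 genes, 0.396% higher and 1.92% lower. With the run as a block in limma 5 of the 14 were called, 2 higher and 3 lower, against 2.76% of all tested probe sets, 0.65% higher and 2.11% lower. Without the intensity trend in limma 0 of the 14 passed, and the 4 called probe sets then had adjusted p-values from 0.0719 to 0.0914. Values below are the authors' linear signal intensity, differences are on the scale of log2(intensity + 16), which understates the change of low genes, and ± is the SD of the arrays or, for a difference, its SE.

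**Figure D1:**
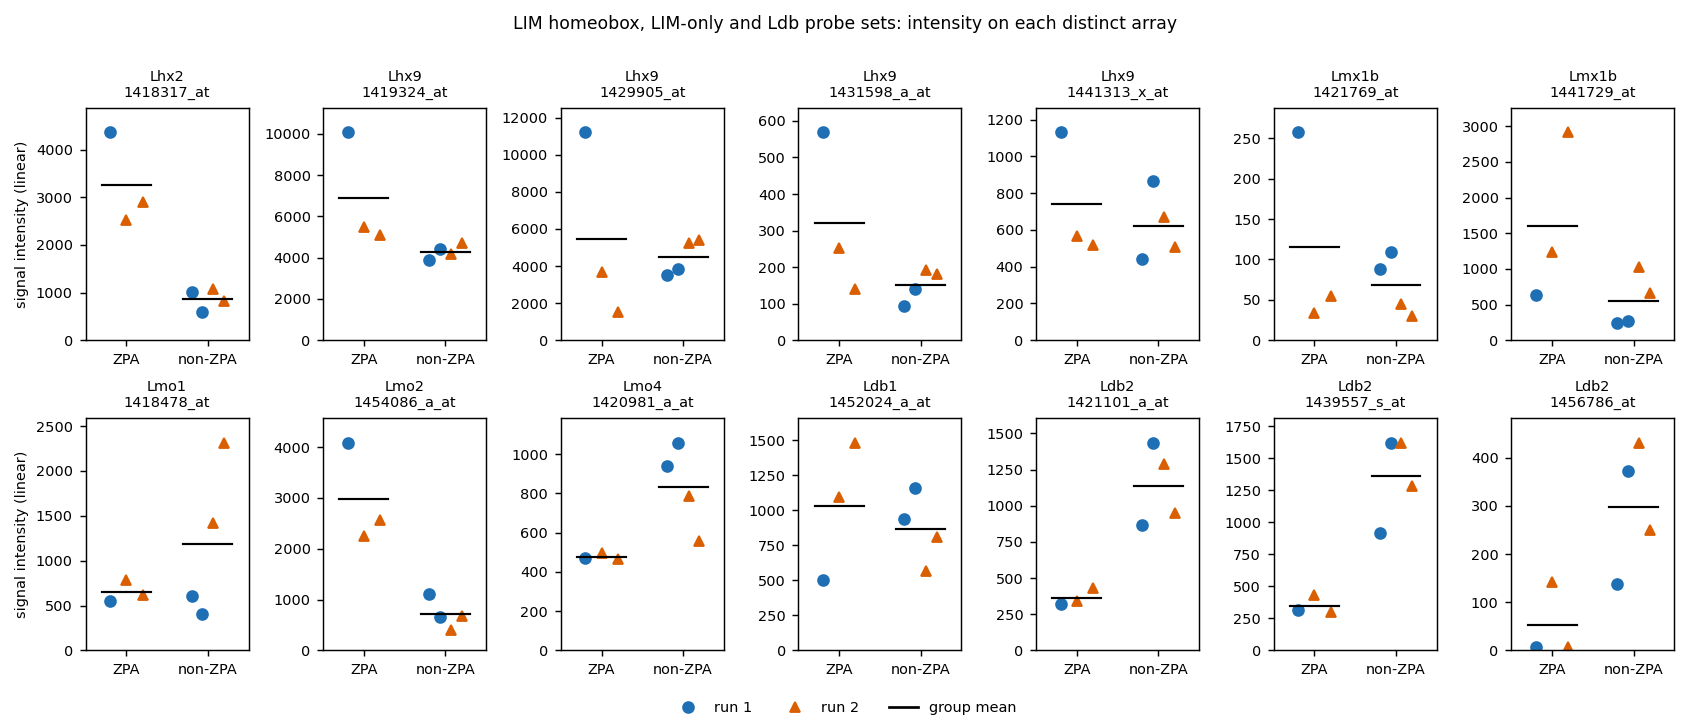
Signal intensity (linear, each panel from 0) of the 14 probe sets on each distinct array, with the 3 ZPA arrays left of the 4 non-ZPA arrays in each panel, circles for run 1, triangles for run 2 and a line at the group mean. The groups stand apart for Lhx2, Lmo2 and the first 2 probe sets of Ldb2, and by a narrow gap for Lmo4 and the first probe set of Lhx9.

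Among the LIM homeobox genes, Lhx2, a factor of the distal limb mesenchyme, read 4362, 2521 and 2894 on ZPA array 1+2, ZPA replicate 3 and ZPA replicate 4, and 1003, 599, 1066.5 and 816 on non-ZPA replicates 1 to 4. Every ZPA array lay more than 2 times above the highest non-ZPA array. The means of Lhx2 were 3259 ± 973 in ZPA and 871 ± 210 in non-ZPA arrays (SD, n = 3 and 4), a 3.67-fold difference (log2 1.88 ± 0.33, limma adjusted p = 0.0134). The call was lost without non-ZPA replicate 2 (log2 1.71, adjusted p = 0.0641) or 4 (1.86, adjusted p = 0.0582). The difference was 2.47 in run 1 and 1.52 in run 2, and run 2 alone did not call it (limma adjusted p = 0.0583). Lhx2 was measured by 1 probe set. The part of the share of limb mesenchyme cells in its difference was not tested.

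Lhx9, the paralogue of Lhx2 in the same mesenchyme, was measured by 4 probe sets, and none passed. The one that stood for the gene in the gene fit, 1419324_at, read 10060.1, 5473 and 5096 on the ZPA arrays and 3874, 4403, 4173 and 4727 on the non-ZPA arrays. Its groups did not overlap, but the lowest ZPA array stood close to the highest non-ZPA array (log2 0.61 ± 0.31, 95% interval -0.06 to 1.28, limma adjusted p = 0.336). The second, 1429905_at, read 11201, 3671 and 1515 on the ZPA arrays and 3515, 3817, 5260 and 5402 on the non-ZPA arrays, so that the ZPA group spread over a 7.39-fold range and spanned the non-ZPA group (-0.15 ± 0.51, limma adjusted p = 0.915). Its lowest value fell on ZPA replicate 4, the array with the Actb ratio of 21.6, whose part in it was not tested. The third, 1431598_a_at, read 568, 253 and 140.0 on the ZPA arrays and 94.9 to 193 on the non-ZPA arrays (0.83 ± 0.48, adjusted p = 0.400). The fourth, 1441313_x_at, of a class that may also detect similar transcripts, had a difference of 0.20 ± 0.38. All 4 were highest on ZPA array 1+2.

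The paralogues were also compared within each array. The log2 ratio of Lhx2 to Lhx9 (1419324_at) was 1.27 higher in ZPA than in non-ZPA arrays. This ratio and those of Lmo2 to Lmo4, Lmo2 to Lmo1 (2.63 higher in ZPA) and Ldb2 to Ldb1 were chosen after the values were seen, so they are given as a description with no test.

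Lmx1b, the dorsal determinant, had 2 probe sets, neither past the test. The probe set 1441729_at read 631, 1240.0 and 2912 on the ZPA arrays and 239.9, 271, 1027 and 655.5 on the non-ZPA arrays. The groups overlapped over all arrays, and within each run every ZPA array lay above every non-ZPA array. Its difference was 1.49 ± 0.56 (limma adjusted p = 0.189), 1.22 ± 0.36 in the fit that blocks on run (adjusted p = 0.0920), and 2.01 without ZPA array 1+2 (adjusted p = 0.0369), a fit in which it passed. The probe set 1421769_at read 257, 33.9 and 55.0 on the ZPA arrays and 88.1, 109.8, 45.4 and 30.3 on the non-ZPA arrays. Only 3 of these 7 values, those of run 1, lay above the filter level of their array, the 40th percentile, and the difference was 0.34 ± 0.66 (adjusted p = 0.841). Both probe sets separated the runs completely, in opposite directions: every run 1 array lay below every run 2 array for 1441729_at and above it for 1421769_at. Over all tested probe sets 3.71% had run 1 below run 2 in this way and 5.61% had it above.

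Among the LIM-only genes, Lmo2, known as an essential bridging factor of the blood and endothelial transcription complex, had the largest positive difference of the 14 probe sets. It read 4086, 2248 and 2570.4 on the ZPA arrays and 1115, 648, 395 and 681.5 on the non-ZPA arrays. The lowest ZPA array lay 2 times above the highest non-ZPA array. Its means were 2968 ± 982 in ZPA and 709.8 ± 299 in non-ZPA arrays (SD, n = 3 and 4), a 4.24-fold difference (log2 2.08 ± 0.38, limma adjusted p = 0.0157), of 2.24 in run 1 and 2.18 in run 2. The call was lost without non-ZPA replicate 2 (2.07, adjusted p = 0.0591), 3 (1.84, adjusted p = 0.0711) or 4 (2.09, adjusted p = 0.0586). Lmo2 too was measured by 1 probe set.

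Lmo2 is best known in blood and endothelial cells, whose markers were read beside it. The summed intensity of 9 tested endothelial genes was 1166, 1036 and 3414 on the ZPA arrays and 1182 to 3140 on the non-ZPA arrays, and none of the 9 passed. That of 8 leukocyte genes was 1541, 831 and 13826 on the ZPA arrays and 1105 to 1788 on the non-ZPA arrays, and none passed. Both sums were highest of all 7 arrays on ZPA replicate 4 and lowest on ZPA replicate 3. All 8 leukocyte genes had a positive difference (median 0.47), as did 2 of the 9 endothelial genes (median -0.39). Erythroid genes summed to 18853, 24000 and 59126 on the ZPA arrays and to 37678 to 54694 on the non-ZPA arrays, a sum made up mostly of Hbb-y (17008 to 45991 in ZPA and 25896 to 30687 in non-ZPA). Of the 9 tested erythroid genes, 3 had every ZPA array below every non-ZPA array: Hba-x (347 to 997 in ZPA and 2342 to 9466 in non-ZPA), Slc4a1 (56.8 to 279 in ZPA and 341 to 2037 in non-ZPA) and Alas2 (6.2 to 109 in ZPA and 112 to 706 in non-ZPA). The first 2 of these passed limma's test as lower in ZPA cells, and none of the 9 passed as higher. The part of these cell types in the difference of Lmo2 was not tested.

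Lmo4, a LIM-only protein that binds Ldb1, read 469, 496 and 463 on the ZPA arrays and 937.5, 1059, 786 and 556.5 on the non-ZPA arrays. The ZPA values were nearly equal and all lay below the non-ZPA values, the highest ZPA array close to the lowest non-ZPA array. The difference was -0.75 ± 0.33 (95% interval -1.47 to -0.03, limma adjusted p = 0.265) and did not pass. The log2 ratio of Lmo2 to Lmo4 was 2.83 higher in ZPA than in non-ZPA arrays, likewise with no test.

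Lmo1, the founding LIM-only gene, best known in neural tissue and T-cell leukaemia, read 549, 786 and 617 on the ZPA arrays and 609, 400.4, 1419 and 2316 on the non-ZPA arrays. Its highest values were the non-ZPA arrays of run 2, and every run 1 array lay below every run 2 array. The difference over all arrays was -0.55 ± 0.51 (limma adjusted p = 0.625), 0.15 in run 1 and -1.36 in run 2. The test of the change between runs gave -1.51 ± 0.60 (limma adjusted p = 0.224).

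**Figure D2:**
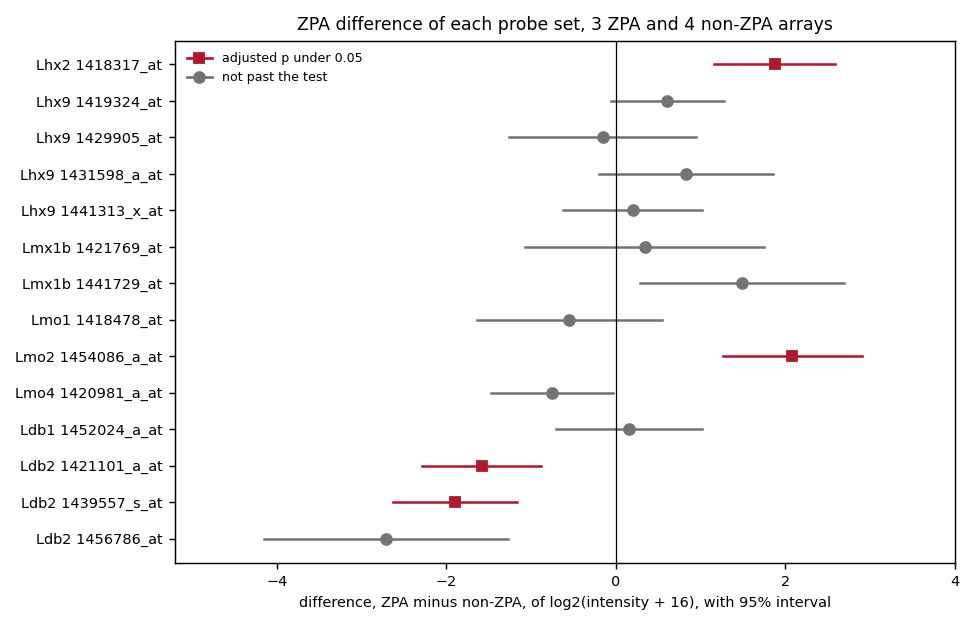
Difference between ZPA and non-ZPA arrays of log2(intensity + 16) for each probe set, with its 95% interval (horizontal axis, 0 for no difference; red squares passed limma's test, grey circles did not). Lhx2 and Lmo2 lie at 1.88 and 2.08, and the 3 probe sets of Ldb2 at -1.58, -1.90 and -2.71.

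Of the adaptors, Ldb2 fell and Ldb1 showed no difference past the test. The Ldb2 probe set 1439557_s_at read 312.5, 436 and 297 on the ZPA arrays and 914, 1624, 1623 and 1287 on the non-ZPA arrays. Each ZPA value lay more than 2 times below the lowest non-ZPA value. This probe set is also of a class that may detect other transcripts. Its difference was -1.90 ± 0.34 (3.73-fold lower, 349 ± 76.1 in ZPA and 1362 ± 338 in non-ZPA arrays, n = 3 and 4, limma adjusted p = 0.0139), and was -1.91 in run 1 and -1.96 in run 2. The probe set 1421101_a_at read 318, 344 and 428 on the ZPA arrays and 869, 1436, 1290.5 and 950.0 on the non-ZPA arrays, again with no overlap (-1.58 ± 0.33, 3.0-fold lower, adjusted p = 0.0309). The third, 1456786_at, read 6.9, 142 and 8.0 on the ZPA arrays and 137, 372, 431 and 249 on the non-ZPA arrays. Here ZPA array 1+2 and ZPA replicate 4 lay below the filter level, so their values are not shown to be above background, and ZPA replicate 3 overlapped the lowest non-ZPA array. It missed the threshold (-2.71 ± 0.67, limma adjusted p = 0.0594), although limma's fit with a term for the run called it (-2.85, adjusted p = 0.0322).

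The Ldb2 calls depended on single arrays. That of 1439557_s_at was lost without non-ZPA replicate 2 (-1.81, adjusted p = 0.0690), 3 (-1.81, adjusted p = 0.0788) or 4 (-1.92, adjusted p = 0.0576). That of 1421101_a_at was lost without ZPA replicate 3 (-1.55, adjusted p = 0.0622) and without any 1 of the non-ZPA replicates, with differences from -1.70 to -1.46 and adjusted p-values up to 0.139, whereas 1456786_at passed without ZPA replicate 3 (-3.63, adjusted p = 0.0158). Summed markers of muscle precursors and of ectoderm were also lower in ZPA cells. Those of 6 muscle precursor genes were 181 to 381 on the ZPA arrays and 1179 to 3094 on the non-ZPA arrays (3 of 6 genes lower), and those of 9 surface ectoderm and ridge genes 919 to 2205 on the ZPA arrays and 3372 to 6816 on the non-ZPA arrays (2 of 9 lower). The 6 neural and crest genes summed to 983 to 1073 on the ZPA arrays and 1289 to 1979 on the non-ZPA arrays, but none passed and 3 of the 6, Sox10, Tubb3 and Elavl4, had positive differences (0.64, 0.72 and 0.16). Among them Dcx alone had groups that did not overlap, at 93.2 to 556 in ZPA and 650 to 1203 in non-ZPA. On every ZPA array 2 of the muscle precursor genes lay below the filter level, no marker was at 0, and their part in the fall of Ldb2 was not tested.

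Ldb1, the more widely studied adaptor, read 506, 1094 and 1483 on the ZPA arrays and 936, 1157, 566 and 812 on the non-ZPA arrays. The lowest and the highest array were both ZPA. Its difference was 0.16 ± 0.40 (95% interval -0.71 to 1.02, limma adjusted p = 0.886). The log2 ratio of Ldb2 (1439557_s_at) to Ldb1 was -0.67, -1.30 and -2.26 on the ZPA arrays and -0.03, 0.48, 1.49 and 0.65 on the non-ZPA arrays, a difference of -2.06 with no test.

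**Figure D3:**
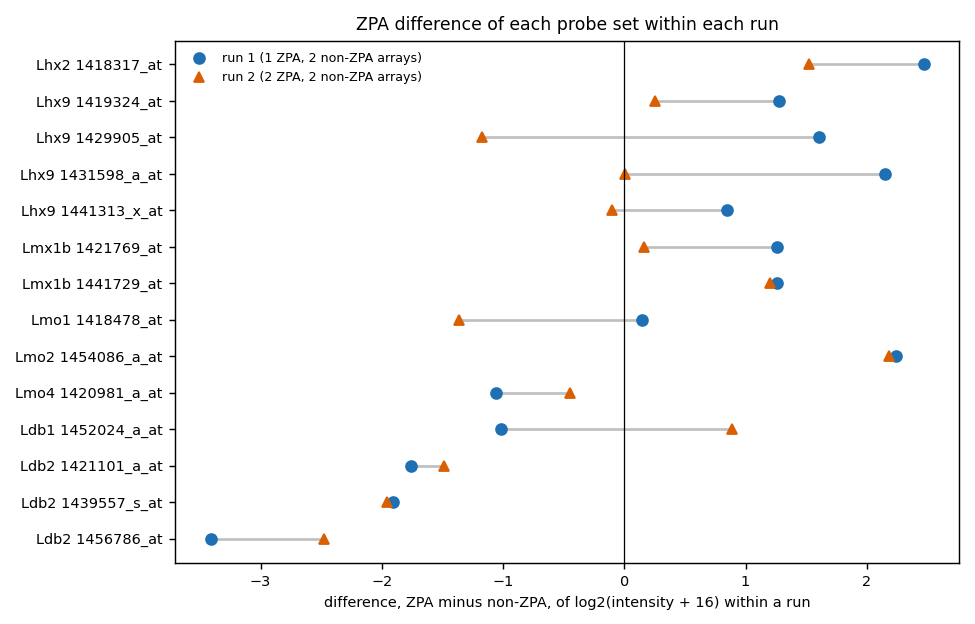
Difference between ZPA and non-ZPA arrays of log2(intensity + 16) within run 1 (blue circles, 1 ZPA and 2 non-ZPA arrays) and within run 2 (orange triangles, 2 and 2 arrays) for each probe set, joined by a grey line. Lmo2 and the first 2 Ldb2 probe sets lie close together in both runs, and Lhx9 1429905_at at 1.61 and -1.17 and Ldb1 at -1.02 and 0.89 lie on opposite sides of 0.

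The sign of each difference was compared between the runs, whatever its size. Lhx9 1431598_a_at, for example, counts as the same sign at 2.15 in run 1 and 0.01 in run 2. Lhx2, Lmx1b, Lmo2, Lmo4 and all probe sets of Ldb2 kept 1 direction, and 10 of the 14 probe sets had the same sign in both runs, against a sign that differed for 45.4% of all tested probe sets. The 4 others were 2 probe sets of Lhx9, Lmo1 and Ldb1. The change of the ZPA difference from run 1 to run 2 was tested directly, and 0 of 14 passed by limma, against 0.969% of all tested probe sets. At an unadjusted p under 0.05 there were 5 of 14, against 17.8% of all tested probe sets. The nearest was Lhx9 1429905_at, at -2.78 ± 0.60 (limma adjusted p = 0.0595). Without the intensity trend in limma 0 probe sets of the whole table passed this test. Fitted alone, run 1 called 9 of the 14 where it called 20.2% of all tested probe sets, and its single ZPA array is assumed to vary like the others. Run 2 alone called 2 of the 14 and 1.34% of all tested probe sets. ZPA array 1+2 is the only ZPA array of run 1, and it was the highest of the 7 arrays for 7 of the 14 probe sets (Lhx2, Lmo2, all of Lhx9 and 1421769_at of Lmx1b), against 27.9% of all tested probe sets. It was also the array with the highest spike-in signal, whose part in this was not tested.

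Related genes were read from lists, 1 probe set per gene. Of 9 other LIM homeobox genes, 5 were tested and none passed (median difference 0.14, against 0.00 over all genes). The tested genes with the highest level were Isl2 (169 ± 84.3 in ZPA and 122 ± 50.9 in non-ZPA arrays, difference 0.37 ± 0.50, limma adjusted p = 0.738) and Isl1, which marks hindlimb progenitors and motor neurons. Isl1 read 168, 11 and 21 on the ZPA arrays and 122, 284.5, 118 and 19.1 on the non-ZPA arrays (-1.05 ± 0.81, limma adjusted p = 0.525). The 4 others did not pass the filter on low values.

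Among 6 tested partners of LIM-only and Ldb proteins none passed (median 0.00). Ssbp2, a single-stranded DNA-binding protein that protects Ldb1 from degradation, read 4732, 3570.2 and 1993 on the ZPA arrays and 7841, 9656, 5103 and 6256 on the non-ZPA arrays. Its groups did not overlap, all 4 of its probe sets had the same sign, and it missed the threshold (-1.11 ± 0.35, limma adjusted p = 0.114). Its relative Ssbp3 was at 0.03 ± 0.31. None of 7 blood partners of Lmo2 passed either (median -0.42), among them the E proteins Tcf12 (-0.20 ± 0.30) and Tcf4 (-0.48 ± 0.29). All 5 tested probe sets of Tcf12 had a negative difference, but only 3 of the 6 of Tcf4 did.

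**Figure D4:**
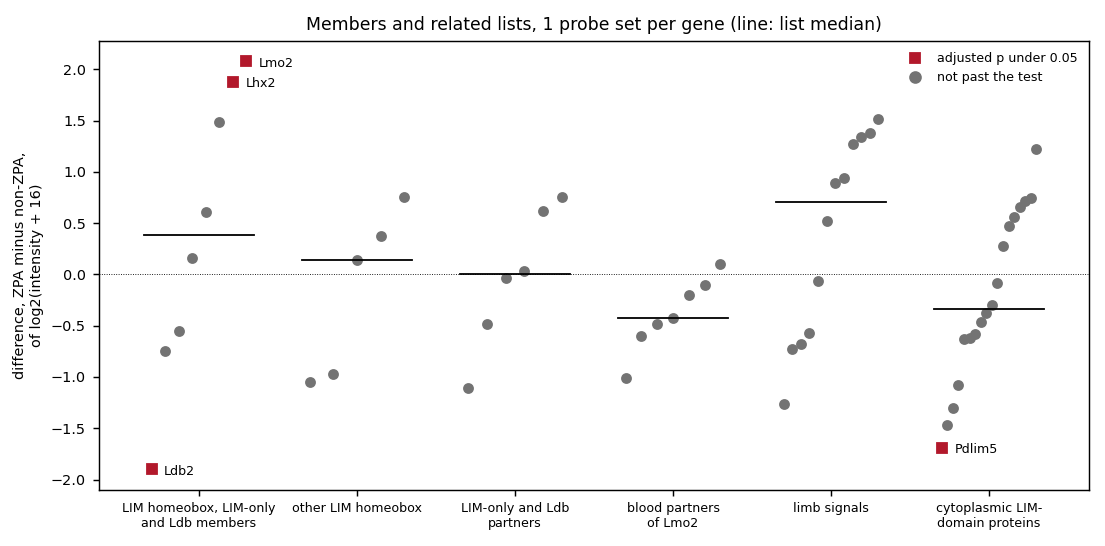
Difference between ZPA and non-ZPA arrays of log2(intensity + 16), 1 point per gene, for the 8 members and 5 related lists, with a line at each list's median (red squares passed limma's test by gene). Outside the members 1 gene passed, Pdlim5.

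In a list of 14 limb signals and targets studied with Lhx2, Lhx9 and Lmx1b, 12 genes were tested and none passed by gene, with a median of 0.70. Hand2, a posterior transcription factor upstream of Shh, read 9945, 9273 and 24948 on the ZPA arrays and 8602, 5474, 3678 and 2587 on the non-ZPA arrays (1.52 ± 0.45, limma adjusted p = 0.0956). Ptch1, the Hedgehog receptor and target, was at 0.94 ± 0.43 (adjusted p = 0.265). When every probe set was tested, 1 of Msx1 passed as higher (1417127_at, 1103, 505 and 610.5 in ZPA against 165, 133, 344 and 131 in non-ZPA, adjusted p = 0.0443) and 1 of Gli3 as lower (1456067_at, -1.65 ± 0.38, adjusted p = 0.0487). In the gene fit Msx1 was at 1.38 ± 0.38 (limma adjusted p = 0.0776) and Gli3 at -0.68 ± 0.31 (limma adjusted p = 0.261), each by another probe set. Of 3 tested Gli3 probe sets 2 had a negative difference, and of 2 of Msx1 2 had a positive one. Wnt7a, the ectodermal signal above Lmx1b, was at -0.73 ± 0.43.

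Of 20 proteins that carry LIM domains in the cytoplasm, 18 were tested and 1 passed (median -0.34). Pdlim5, a Z-disc and cytoskeletal LIM protein, read 213, 295 and 314 on the ZPA arrays and 819, 739, 932 and 1207 on the non-ZPA arrays, with no overlap (3.23-fold lower, -1.69 ± 0.33, limma adjusted p = 0.0179). All 5 of its probe sets had this sign, and the call was lost without any 1 of the 4 non-ZPA replicates, with adjusted p-values from 0.0544 to 0.0820.

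By Pearson correlation of log2(intensity + 16) across the 7 arrays, the genes most like Lhx2 were Commd6, Fam219a and Pfdn1 (r of 0.991, 0.987 and 0.984). Those most like Lmo2 were Atp6v1e2, Zwint and Higd1a (0.985, 0.984 and 0.977), and those most like Ldb2 were Mob4, Cdh6 and L3mbtl3 (0.993, 0.988 and 0.988). The 7 points share the division into sorts and into runs, and 35, 23 and 73 genes reached an r of 0.95 with Lhx2, Lmo2 and Ldb2. For Lhx9 the nearest were Id1, Srsf3 and Rfesd (0.988, 0.987 and 0.985). The Lhx9 values (1419324_at) peaked at 10060.1 in ZPA array 1+2, with 5473 in ZPA replicate 3 as the next highest. The r values of Lhx9 therefore lean on a single array, and a link between Lhx9 and these genes was not tested. For Lmx1b the nearest were 2310009B15Rik, Bak1 and 2700038G22Rik (0.986, 0.984 and 0.982), and for Lmo4 Tnnc1, Hkdc1 and Calb2 (0.993, 0.981 and 0.978). For Ldb1 they were Inpp5b, Taf6l and Prmt1 (0.982, 0.981 and 0.976). No gene reached 0.95 with Lmo1, whose nearest were Krr1, Phf19 and C9 (0.935, 0.930 and 0.926).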

How the data were processed

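Expression was measured on Mouse430_2 arrays, as the deposited experiment files state, from 50 ng of total RNA amplified in 2 cycles, per the labels' protocols. Per the submitters' processing notes the authors used GCOS 1.3, and the deposited table gives its signal intensity on a linear scale. How probes were summarised, and any detection calls, are not given in the sources used here. The arrays had been scaled before deposit, with trimmed means of 499.4 to 500.0 (lowest and highest 2% dropped) and medians of 75.2 to 133. The number of arrays limits the precision.

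Values were tested as log2(intensity + 16) with limma 3.58.1 in R 4.3.3 (lmFit, eBayes with an intensity trend, 2-sided, Benjamini-Hochberg over all 29521 tested probe sets). A probe set was tested above the 40th percentile of its array (50.8 to 91.9) on at least 3 of the 7 distinct arrays. Controls (64 probe sets) were not tested, and of the remainder 34945 had a single symbol, 932 several and 9160 none. A gene fit used the single-symbol probe set with the highest mean. On simulated data with 200 changed probe sets among 29521, over 10 draws, the test recovered 0.2% of log2 changes of 1, 27.0% of 2, 56.8% of 3 and 77.2% of 4. The changes were split equally over these sizes, with independent normal noise at each probe set's own residual spread. Recovery depends on how many probe sets change, so these shares hold for that setting only.

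The members and lists were chosen with earlier results of these data known. Named genes are all members, list genes that passed the gene fit or otherwise the 2 of the highest level, Shh, and the 3 genes most correlated with each member. Pitx1, Tbx5, Wnt7a, Msx1, Gli3, the single blood and neural markers given with values and the 4 ratios were added after their values were seen. Same-numbered ZPA and non-ZPA replicates shared a run and had deviations correlated between -0.016 and 0.079. They were not paired in the main fit. With so few arrays these correlations cannot show whether both fractions came from the same dissociation. ZPA replicates 1 and 2 were merged since any other 2 columns were at least 11381 units apart at some probe set. Alternatives were the pseudocount, scaling, filter, threshold, variance model, array weights, the replicate or run block, each run alone, both shared columns and each array left out.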

Additional observations from a re-analysis of the deposited data

Results flagged for a closer look

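Lhx9 1429905_at stood out because ZPA lay above both non-ZPA arrays in run 1 and below both in run 2. The change of its ZPA difference from run 1 to run 2 was -2.78 ± 0.60 on the log2 scale (limma adjusted p = 0.0595), which missed the threshold. The other 3 probe sets of Lhx9 changed in the same direction, by -1.03, -2.13 and -0.95, and none passed. Ldb1 stood out for the opposite order, with ZPA below both non-ZPA arrays in run 1 and above both in run 2. Its change between runs was 1.91 ± 0.55 (limma adjusted p = 0.118), which also missed the threshold. Run 1 has 1 ZPA array, which enters both values.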

How the results depend on the processing

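Among all tested features, the 481 called probe sets and 321 called genes became 782 and 579 with the replicate block when the shared ZPA array was taken as replicate 2 (466 and 267 as replicate 1), 814 and 515 with the run as a block, and 5976 and 3149 in run 1 alone. They became 98 and 148 without the intensity trend, 1311 and 1224 with array weights, 1295 and 883 with both shared columns counted, and 1234 and 799 at an adjusted p under 0.1. Leaving out 1 array gave 125 to 2586 probe sets (2586 without ZPA array 1+2, at most 616 otherwise) and 102 to 1722 genes (1722 without ZPA array 1+2, at most 350 otherwise). Of the 481, 103 were higher and 378 lower. Median centring, which moved the median of all probe sets by -0.25, gave 66 and 509, no trend 15 and 83, array weights 385 and 926, both columns 442 and 853, and run 1 alone 2677 and 3299. Leaving out 1 array gave from 15 and 110 (without non-ZPA replicate 2) or 14 and 116 (without non-ZPA replicate 3) to 1023 and 1563 (without ZPA array 1+2).

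The 4 called member probe sets became 9 in run 1 alone (20.2% of all tested probe sets), 2 in run 2 alone (1.34%) and 0 without the trend, where 98 of all probe sets passed. They ran from 0 to 5 without 1 array (0 without non-ZPA replicate 2 or 4, 1 without 3). Blocking on the replicate number, the shared array being replicate 1, ended the call of Ldb2 1421101_a_at (-1.46, adjusted p = 0.125), and both replicate blocks called 1456786_at (-2.57 and -3.02). The 286 probe sets whose difference changed between runs became 0 without the trend. The 1 called list gene became 2 with the run as a block and 3 with 1 row per probe set. Lhx2, Lmo2 and Ldb2 kept their direction in every setting run. The cause was not tested for any change.

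Signs turned for 8 genes or probe sets, none of them called with all arrays. Lhx9 1429905_at, at -0.15 with all arrays, was 1.61 in run 1 alone, 0.22 with both columns and 0.54 without ZPA replicate 4. It kept its sign at -0.90 without ZPA array 1+2 and -0.26 without non-ZPA replicate 1. Lhx9 1441313_x_at was -0.05 with median centring, -0.10 in run 2 alone, -0.01 with array weights and -0.14 to 0.41 without 1 array. Lmx1b 1421769_at was -0.35 with weights and -0.39 to 0.83 without 1 array, and Lmo1 was 0.15 in run 1 alone. Ldb1, at 0.16 with all arrays, was -0.10 with median centring, -1.02 in run 1 alone and -0.06 with both columns. It kept its sign at 0.59 without ZPA array 1+2 and was -0.17 to 0.31 without another array. Isl2 was -0.18 and Tcf12 0.04 with weights, and Tcf12 -0.41 to 0.05 without 1 array. Ssbp3 was -0.08 with quantile normalization, -0.22 with median centring, -0.02 with the replicate block (shared array as replicate 1), -0.04 with the run block, -0.46 in run 1 alone, -0.11 with both columns and -0.19 to 0.32 without 1 array.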
